A study of Saccharomyces cerevisiae with 4 samples.

Results

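The transcripts of 31 enzymes of the tricarboxylic acid (TCA) cycle, the glyoxylate cycle and gluconeogenesis were followed in wine yeast fermenting under lipid limitation, with and without the kinase gene *SCH9*. The members were chosen by name, as the probes whose gene symbol in the array annotation is one of a given list of enzyme genes. All 31 were found, each with 1 probe, among 6227 probes in all. By the known location of the enzymes 20 are mitochondrial, 8 cytosolic and 3 peroxisomal. There were 4 one-colour arrays, 2 of the sch9-deleted strain and 2 of the wild type. They are labelled as biological replicates 1 and 2 without a word on whether they came from separate fermenters, so a p-value here measures the spread between these samples only. Both strains are 59A, a haploid spore derivative of the wine yeast EC1118, and in the mutant the *SCH9* reading frame was replaced by a KanMX marker that the wild type lacks. The number of mutant clones is not stated. Both were grown without oxygen in synthetic medium with 230 g/L glucose plus fructose, 142 mg/L assimilable nitrogen and 5% of the lipid factors ergosterol and oleic acid, and RNA was taken at the same amount of CO2 released. The methods also name a medium of lower nitrogen content for the array cultures, which the labels do not. The comparison addresses which genes depend on Sch9 in these conditions.

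In the TCA cycle, acetyl-CoA made by pyruvate dehydrogenase is condensed with oxaloacetate to citrate, which is oxidised in the mitochondrion through 2-oxoglutarate, succinate, fumarate and malate back to oxaloacetate. The glyoxylate cycle bypasses the decarboxylating steps and, with phosphoenolpyruvate carboxykinase and fructose bisphosphatase, lets yeast build sugars from ethanol or acetate. In fermenting yeast, glucose represses many of these genes, and without oxygen the cycle is known to work as an oxidative branch to 2-oxoglutarate and a reductive branch to succinate. Several steps have isoenzymes in the mitochondrion, the cytosol or the peroxisome.

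*SCH9* gave 5.81 and 5.67 on the log2 intensity scale in the mutant, and 8.72 and 8.67 in the wild type. The 6 haploid-specific genes looked at lay between 8.13 and 10.52 on all 4 arrays. With no diploid array beside them, these values cannot check the haploid label. The array medians lay between 8.52 and 8.53. Across all features the replicates of the mutant differed with an SD of 0.135, and those of the wild type with an SD of 0.236. An array value stands for the whole culture, so that more RNA in every cell and more cells with the RNA cannot be told apart.

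Of the 31 genes, 12 were higher in the sch9 mutant, 1 was lower and 18 passed in neither direction. The test was limma's on the log2 intensities, with Benjamini-Hochberg adjustment over 6226 features and an adjusted p under 0.05 for a call. The higher ones make up 38.7% of the members, beside 14.6% of all features, and the lower one 3.23%, beside 12.1% of all features. The median log2 fold change (log FC, sch9-deleted minus wild type) was 0.25 over the members and -0.01 over all features. With a log FC beyond 1 in size, which the methods added as a criterion, 2 members were higher and 0 lower, beside 2.18% and 1.64% of all features. In 18 members both mutant arrays lay above both wild-type arrays, which held for 33.7% of all features, and in 5 both lay below, which held for 35.8%. Leaving out mutant replicate 1 kept 5 of the 12 higher genes (*ACO1*, *KGD2*, *PCK1*, *KGD1* and *LAT1*), and leaving out mutant replicate 2 kept only *ACO1*, where 4.98% and 2.88% of all features were higher. *OSM1*, the lower one, did not pass once either mutant array was left out. A strain left with 1 array has no spread of its own, so these fits, and all below with an array left out, take the spread from the other strain alone and assume that the lone array varies like it. A call lost there does not show a lost change. Without mutant replicate 1 and replicate 2 the log FC of *MDH1* was 1.14 and 1.10, of *KGD2* 1.01 and 0.77, of *FBP1* 0.25 and 0.30 and of *OSM1* -0.32 and -0.36.

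**Figure D1:**
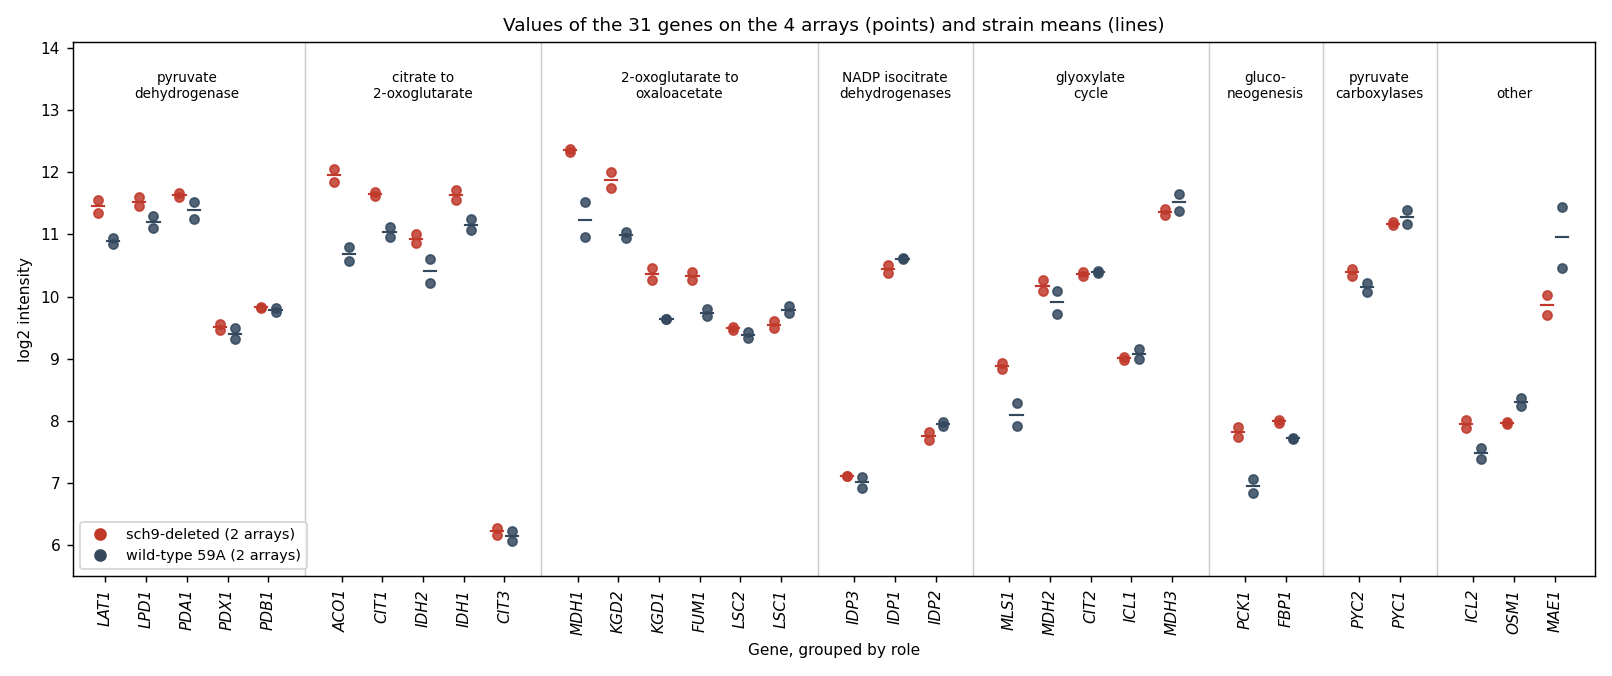
The log2 intensity (vertical axis) of each of the 31 genes (horizontal axis, grouped by role) is shown for the 2 sch9-deleted arrays (red, left) and the 2 wild-type arrays (dark, right), with a line at each strain mean. The mutant points of *ACO1*, *MDH1*, *KGD2* and *KGD1* stand clear above those of the wild type, the wild-type points of *MAE1* lie far apart, and the points of *CIT3* overlap.

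From citrate to 2-oxoglutarate, 3 of 5 genes were higher in the mutant and 0 lower, with a median log FC of 0.52. Over all features 14.6% were higher and 12.1% lower. *ACO1*, the aconitase, had the largest increase of all members. It was measured at 11.85 and 12.06 in the mutant, against 10.81 and 10.57 in the wild type. The groups lay wide apart, with a log FC of 1.27 ± 0.12 (SE, adjusted p = 0.00331 by limma), or 2.41-fold. *CIT1*, the main mitochondrial citrate synthase, had 11.63 and 11.69 in the mutant and 10.96 and 11.13 in the wild type, a log FC of 0.62 ± 0.09 (SE, adjusted p = 0.0105). *CIT3*, a minor mitochondrial citrate synthase that also acts on propionyl-CoA, had 6.28 and 6.16 in the mutant and 6.07 and 6.22 in the wild type. These overlap, and they exceeded only between 10.4% and 12.3% of the probes on their arrays. The NAD-dependent isocitrate dehydrogenase is built from both Idh1 and Idh2. *IDH1* had 11.56 and 11.71 in the mutant and 11.06 and 11.24 in the wild type, a log FC of 0.48 ± 0.10 (SE, adjusted p = 0.0256). *IDH2* had 10.86 and 11.00 in the mutant and 10.21 and 10.61 in the wild type. Its log FC was of like size, 0.52, but the wild-type arrays differed by 0.40. The adjusted p by limma was 0.0538, and 0.0486 with quantile normalisation once more. Once either mutant array was left out *CIT1* and *IDH1* did not pass, though without replicate 1 and replicate 2 their log FC was 0.65 and 0.58 for *CIT1* and 0.56 and 0.40 for *IDH1*. *IDH2* passed once either wild-type array was left out, with a log FC of 0.32 without replicate 1 and of 0.72 without replicate 2.

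From 2-oxoglutarate to oxaloacetate, 4 of 6 genes were higher and 0 lower, beside 14.6% and 12.1% of all features. Their median log FC was 0.66. The genes of the catalytic core of 2-oxoglutarate dehydrogenase were both among them. *KGD2*, its succinyltransferase, had 11.75 and 12.00 in the mutant and 10.94 and 11.04 in the wild type, a log FC of 0.89 ± 0.11 (SE, adjusted p = 0.00643 by limma). *KGD1*, its decarboxylating subunit, had 10.27 and 10.45 in the mutant, while both wild-type arrays gave 9.64. This is a log FC of 0.72 ± 0.09 (SE, adjusted p = 0.00671). *FUM1*, the fumarase, whose product is found in the cytosol as well, had 10.27 and 10.40 in the mutant and 9.68 and 9.80 in the wild type (log FC 0.60, adjusted p = 0.0107). *MDH1*, the mitochondrial malate dehydrogenase, had 12.33 and 12.37 in the mutant against 10.95 and 11.52 in the wild type. Its mutant arrays differed by 0.04 and its wild-type arrays by 0.56, and the log FC was 1.12 ± 0.19 (SE, adjusted p = 0.0148), or 2.17-fold. Succinyl-CoA ligase, between these steps, passed in neither of its subunits. Its alpha subunit gene *LSC1* had 9.60 and 9.49 in the mutant and 9.84 and 9.73 in the wild type, a log FC of -0.24 (adjusted p = 0.0898), and its beta subunit gene *LSC2* had 9.47 and 9.51 in the mutant and 9.44 and 9.34 in the wild type, a log FC of 0.10 (adjusted p = 0.379). Once either mutant array was left out *FUM1* and *MDH1* did not pass, and without mutant replicate 2 *KGD1* and *KGD2* did not. The log FC of *FUM1* was then 0.66 without replicate 1 and 0.53 without replicate 2, and that of *KGD1* 0.63 without replicate 2. Without replicate 1 and replicate 2 of the wild type, the log FC of *MDH1* was 0.84 and 1.40, and *LSC1* was lower without replicate 2.

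Of the 5 genes of pyruvate dehydrogenase 1 was higher (20%, near the 14.6% of all features) and 0 were lower, beside 12.1%. *LAT1*, the acetyltransferase core, had 11.34 and 11.56 in the mutant and 10.95 and 10.85 in the wild type, a log FC of 0.55 ± 0.10 (SE, adjusted p = 0.0189 by limma). *LPD1* encodes the lipoamide dehydrogenase that this complex shares with 2-oxoglutarate dehydrogenase. It had 11.45 and 11.60 in the mutant and 11.10 and 11.29 in the wild type, a log FC of 0.33 with an adjusted p of 0.0676. The subunits of the decarboxylating part, *PDA1* and *PDB1*, had log FC of 0.25 (adjusted p = 0.141) and 0.04 (adjusted p = 0.753), and *PDX1*, which anchors Lpd1 in the complex, 0.10. Within this complex only the arrays of *LAT1*, *LPD1* and *PDA1* lay apart by strain, with the mutant above, which held for 33.7% of all features. *LAT1* did not pass without replicate 2 of the mutant (log FC 0.44), *LPD1* passed without replicate 2 of the wild type and *PDA1* without its replicate 1.

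Both genes particular to gluconeogenesis were higher in the mutant, from low levels, beside 14.6% of all features called higher. *PCK1*, phosphoenolpyruvate carboxykinase, had 7.74 and 7.90 in the mutant and 6.84 and 7.06 in the wild type. The log FC was 0.87 ± 0.11 (SE, adjusted p = 0.00672 by limma), and even in the mutant these values exceeded only 31.8% and 34.9% of the probes. *FBP1*, fructose bisphosphatase, had 8.02 and 7.97 in the mutant and 7.71 and 7.73 in the wild type, a small change of 0.27 ± 0.07 (SE, adjusted p = 0.0436). *FBP1* did not pass once either mutant array was left out, and *PCK1* not without replicate 2, where its log FC was 0.79. The pyruvate carboxylases feed oxaloacetate to gluconeogenesis and to the TCA cycle. *PYC1* had 11.16 and 11.19 in the mutant and 11.17 and 11.39 in the wild type, and *PYC2* had 10.33 and 10.45 in the mutant and 10.08 and 10.22 in the wild type. Neither passed, with log FC of -0.10 (adjusted p = 0.469) and 0.24 (adjusted p = 0.0978). *PYC2* passed without replicate 2 of the wild type. The coding sequences of *PYC1* and *PYC2* are much alike, and how far signal is shared between their probes was not tested.

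Of the 5 genes of the glyoxylate cycle 1 was higher (20%, near the 14.6% of all features) and 0 were lower, beside 12.1%. Their median log FC was -0.04. Isocitrate lyase and malate synthase are the enzymes particular to this cycle. *MLS1*, malate synthase, had 8.84 and 8.93 in the mutant and 7.91 and 8.28 in the wild type, a log FC of 0.78 ± 0.14 (SE, adjusted p = 0.0163 by limma). *ICL1*, isocitrate lyase, had 8.98 and 9.03 in the mutant and 9.00 and 9.15 in the wild type, so that the groups overlap (log FC -0.07, adjusted p = 0.590). The peroxisomal citrate synthase gene *CIT2*, a classical target of retrograde signalling from the mitochondrion to the nucleus, had 10.33 and 10.39 in the mutant and 10.38 and 10.41 in the wild type (log FC -0.04, adjusted p = 0.738). The malate dehydrogenase genes of this cycle, *MDH2* of the cytosol and *MDH3* of the peroxisome, did not pass. *MDH2* had 10.09 and 10.26 in the mutant and 9.73 and 10.09 in the wild type (log FC 0.27, adjusted p = 0.218). *MDH3* had 11.32 and 11.41 in the mutant and 11.38 and 11.65 in the wild type (log FC -0.15, adjusted p = 0.354). In both the strains overlap. *MLS1* did not pass once either mutant array was left out, with log FC of 0.83 without replicate 1 and of 0.74 without replicate 2. *MDH2* passed without replicate 2 of the wild type, and *MDH3* was lower without its replicate 1.

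The NADP-dependent isocitrate dehydrogenases, which supply NADPH in each compartment, did not pass in any of them. *IDP1*, the mitochondrial form, had 10.51 and 10.39 in the mutant and 10.61 on both wild-type arrays, a log FC of -0.16 (adjusted p = 0.189). The cytosolic form *IDP2* had 7.69 and 7.82 in the mutant and 7.91 and 7.98 in the wild type (log FC -0.19, adjusted p = 0.138). In both the mutant arrays lay below the wild-type arrays without passing, which held for 35.8% of all features whether called or not. The peroxisomal form *IDP3*, which serves the breakdown of unsaturated fatty acids, had 7.12 and 7.11 in the mutant and 6.92 and 7.10 in the wild type (log FC 0.10, adjusted p = 0.431). Its mutant arrays lay just above its wild-type arrays, the opposite direction, which held for 33.7% of all features. The last 3 members had log FC of either sign. *MAE1*, the mitochondrial malic enzyme, which turns malate into pyruvate, had 10.03 and 9.71 in the mutant against 11.45 and 10.46 in the wild type. Both mutant arrays lay below both wild-type arrays. The log FC was -1.09 ± 0.33 (SE, adjusted p = 0.0623 by limma), but the wild-type arrays differed from each other by 0.99. Without replicate 1 of the wild type the log FC of *MAE1* was -0.59 and without replicate 2 it was -1.58, and the gene passed in both cases. *ICL2*, the mitochondrial 2-methylisocitrate lyase of propionate breakdown, had 7.89 and 8.01 in the mutant and 7.56 and 7.39 in the wild type, a log FC of 0.47 ± 0.09 (SE, adjusted p = 0.0224). *OSM1*, a fumarate reductase that reoxidises flavin cofactors when oxygen is absent, had 7.95 and 7.98 in the mutant and 8.25 and 8.37 in the wild type. It was the only member called lower, with a log FC of -0.34 ± 0.08 (SE, adjusted p = 0.0327). *ICL2* did not pass once either mutant array was left out, with log FC of 0.53 without replicate 1 and of 0.42 without replicate 2.

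By compartment, 9 of the 20 mitochondrial genes were higher and 1 was lower, against 3 and 0 of the 8 cytosolic and 0 and 0 of the 3 peroxisomal genes, beside 14.6% higher and 12.1% lower over all features. With 3 genes, a count of 0 is near that share. The median log FC was 0.40 in the mitochondrial, 0.26 in the cytosolic and -0.04 in the peroxisomal group. The difference between these groups was not tested. Each gene was counted in a single compartment, although some products are found in another as well. Fumarase (*FUM1*) lies also in the cytosol, malate synthase (*MLS1*, counted as cytosolic) also in peroxisomes, and Osm1 (counted as mitochondrial) also in the endoplasmic reticulum. Among the mitochondrial genes *MAE1*, *OSM1*, *LSC1* and *IDP1* had a log FC below 0. Among the 11 enzymes on the way from acetyl-CoA around the mitochondrial cycle (*CIT1* to *MDH1*, with *CIT3*) 7 were higher and 0 lower, with a median log FC of 0.60. Without replicates 1 and 2 of the mutant, 4 and 1 mitochondrial genes were higher, and 1 and 0 of the cytosolic and peroxisomal ones, beside 4.98% and 2.88% of all features.

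**Figure D2:**
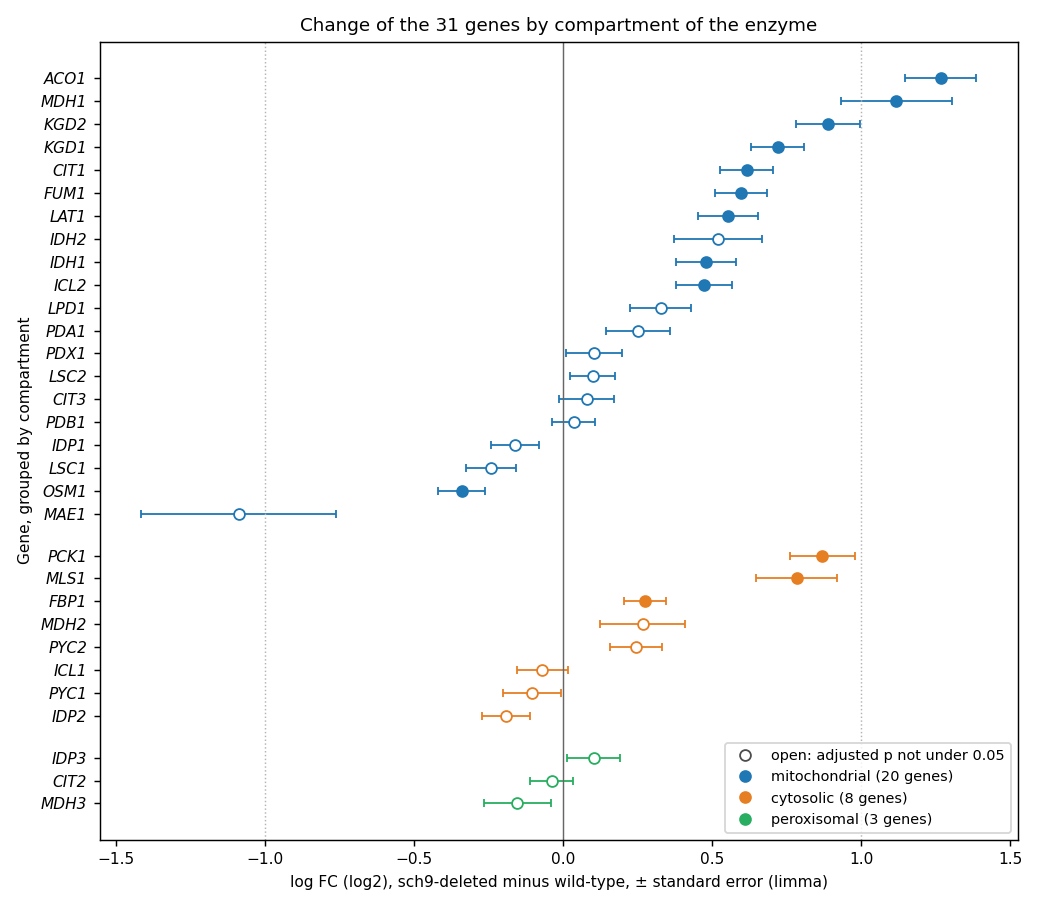
The log FC of each gene (horizontal axis, log2, sch9-deleted minus wild type) is drawn with its standard error by limma, in groups of 20 mitochondrial, 8 cytosolic and 3 peroxisomal genes, filled where the adjusted p was under 0.05. The filled points run between 1.27 for *ACO1* and -0.34 for *OSM1*, and the 3 peroxisomal genes lie between 0.10 and -0.15.

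The isoenzymes of a step were set against each other within each array, as the log2 value of the mitochondrial form minus that of the other form, so that a scale factor of an array drops out. Over 7 pairs the exact two-sided permutation test on 2 against 2 arrays cannot give a p below 0.3333, so the sizes are a description. The malate dehydrogenases differed most. Relative to the wild-type mean, the difference of *MDH1* from *MDH3* was 1.30 and 1.25 in the mutant arrays and -0.15 and 0.15 in the wild-type arrays, a change of 1.27 ± 0.15 (SE, exact permutation p = 0.3333, adjusted p = 0.467). For *MDH1* against *MDH2* it was 0.92 and 0.78 in the mutant and -0.10 and 0.10 in the wild type, a change of 0.85 ± 0.12 (SE). In the citrate synthases, *CIT1* against *CIT2* gave 0.65 on both mutant arrays and -0.07 and 0.07 in the wild type, and the change was 0.65 ± 0.07 (SE). *CIT1* and *CIT2* are close paralogs, and how far signal is shared between their probes was not tested. In these 3 pairs both mutant arrays lay above the wild-type arrays by several times the spread between replicates.

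*ICL2* against *ICL1* also gave a larger value in the mutant, by 0.54 ± 0.16 (SE), with 0.51 and 0.58 in the mutant and 0.16 and -0.16 in the wild type. Icl2 does not replace Icl1 in the glyoxylate cycle, so this pair is related by sequence rather than by function. The other pairs did not go this way. *CIT3* against *CIT2* gave a change of 0.12 ± 0.11 (SE) and *IDP1* against *IDP2* of 0.03 ± 0.13 (SE), both with overlapping arrays. *IDP1* against *IDP3* gave -0.26 ± 0.11 (SE), with -0.21 and -0.32 in the mutant and 0.09 and -0.09 in the wild type, the opposite sign. Of the 7 pairs, both mutant arrays lay above both wild-type arrays in 4, below them in 1, and overlapped with them in 2. The exact permutation p was 0.3333 in the 5 pairs with the arrays apart (adjusted p = 0.467), 0.6667 for *CIT3* against *CIT2* and 1 for *IDP1* against *IDP2*.

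**Figure D3:**
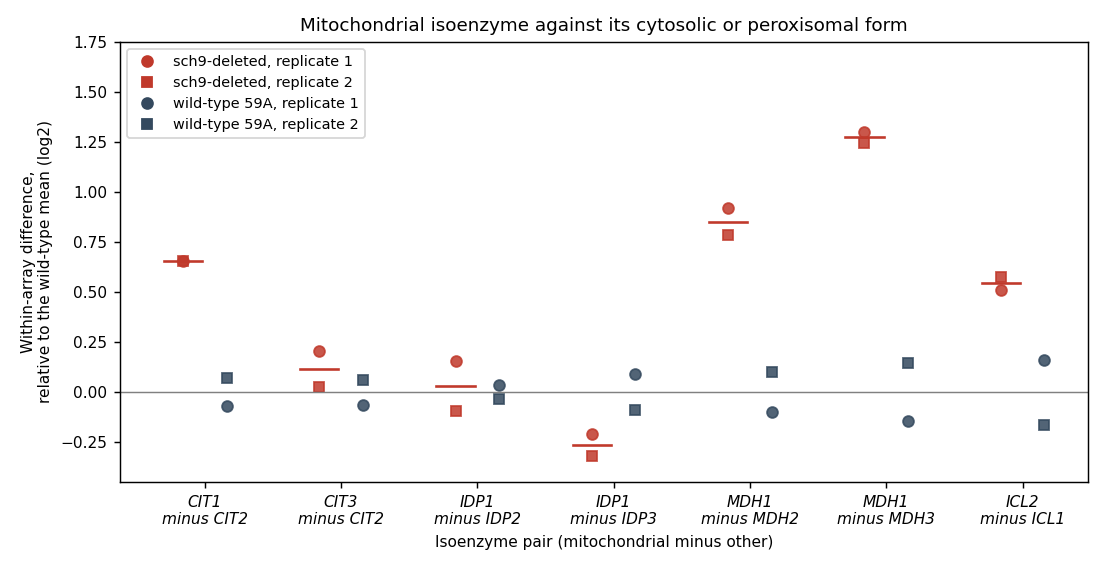
For each of 7 pairs (horizontal axis) the points give the log2 difference of the mitochondrial minus the other isoenzyme on each array, relative to the wild-type mean, for sch9-deleted (red, left) and wild type (dark, right), with circles for replicate 1, squares for replicate 2 and a line at the mutant mean. The mutant points lie near 1.27 for *MDH1* minus *MDH3* and near 0.65 for *CIT1* minus *CIT2*, and below those of the wild type for *IDP1* minus *IDP3*.

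Genes next to the pathway were taken from lists of 53 genes, of which 40 were matched to a probe. Of these 16 were higher (40.0%), 1 was lower (2.5%) and 23 did not pass, with a median log FC of 0.15. Over all features the shares were 14.6% higher and 12.1% lower and the median was -0.01. Succinate dehydrogenase is the step of the cycle that also belongs to the respiratory chain. Of 6 genes for it and its assembly 3 were higher and 0 lower. *SDH1*, its flavoprotein, had 12.43 and 12.55 in the mutant and 11.78 and 11.76 in the wild type, a log FC of 0.72 ± 0.08 (SE, adjusted p = 0.00490 by limma). *SDH2*, the iron-sulphur subunit, had a log FC of 0.59 and *SDH4*, a membrane anchor, of 0.35 (adjusted p = 0.0313, and 0.0554 with an intensity trend and robust hyperparameters), while the other anchor *SDH3* had 0.05 (adjusted p = 0.669) and the assembly factor *SDH7* -0.04.

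Of 12 regulators of gluconeogenic and respiratory genes 9 were higher (75% of the list, beside 14.6% of all features) and 0 lower, with a median log FC of 0.35. The called genes act in both directions on their targets. They include the glucose repressor *MIG1* (log FC 0.33, adjusted p = 0.0365 by limma). *REG1* (0.39, adjusted p = 0.0248) encodes a subunit of the phosphatase that maintains glucose repression. Also called higher were *RDS2* (0.36), *SIP4* (0.34) and *SNF1* (0.34, adjusted p = 0.0472, and 0.054 with median centring). All of these were named after their values were known. *ADR1*, an activator of genes for ethanol and fatty acid use, had 8.72 and 8.90 in the mutant against 7.78 and 7.81 in the wild type (log FC 1.01 ± 0.09 SE, adjusted p = 0.00272 by limma). *CAT8*, an activator of gluconeogenic and glyoxylate genes, had 9.23 and 9.26 in the mutant against 8.20 and 8.35 in the wild type (log FC 0.97 ± 0.08 SE, adjusted p = 0.00269). In the Hap complex, which activates respiratory genes, the DNA-binding subunits had log FC of 0.73 for *HAP2* and 0.55 for *HAP5*, both called higher, and of -0.27 for *HAP3* (adjusted p = 0.0887). *HAP4*, its activating subunit, had 10.71 and 10.66 in the mutant and 10.92 and 10.32 in the wild type, which overlap. It was picked for mention because of these values. In retrograde signalling 0 of 5 genes were higher and 1 was lower (20%, beside 12.1% of all features). This was *DLD3*, long known as a lactate dehydrogenase and a retrograde target, with 10.97 and 10.99 in the mutant and 11.43 and 11.41 in the wild type. Its log FC was -0.44 ± 0.07 (SE, adjusted p = 0.0131). Of the regulators of the pathway, *RTG3*, *MKS1* and *RTG1* had 0.10, 0.09 and 0.05, and *RTG2* had -0.34 (adjusted p = 0.0682).

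Of 7 mitochondrial carriers of organic acids 1 was higher (14.3%, near the 14.6% of all features) and 0 lower. The higher one was *ODC1*, a carrier of oxodicarboxylates, with a log FC of 0.30 (adjusted p = 0.0318 by limma), while *OAC1*, the oxaloacetate carrier, and *YHM2*, a citrate carrier, had -0.48 (adjusted p = 0.134) and -0.34 (adjusted p = 0.0646). Of 3 measured genes for control and lipoylation of the dehydrogenases 2 were higher. They were *PTC5*, a phosphatase that activates pyruvate dehydrogenase, with a log FC of 0.41 (adjusted p = 0.0156) and *LIP2*, needed to attach lipoic acid, with 0.32 (adjusted p = 0.0323). *PKP1*, *PKP2*, *PTC6* and *LIP3* of this list were not matched to a probe, so the count covers only part of it. Of 7 genes of the ubiquitin ligase that removes Fbp1 and Pck1 when glucose returns, 1 was higher, again 14.3%. This was *RMD5* with 0.30 (adjusted p = 0.0471, and 0.055 with median centring), while *UBC8* had -0.21 and *VID24* -0.01. Without mutant replicate 1 *SDH1*, *SDH2*, *ADR1*, *CAT8* and *HAP2* remained higher among all 40 genes and *DLD3* did not pass, and without replicate 2 only *ADR1* and *CAT8* remained. Fewer of all features were called in these fits as well, in either direction. Without replicate 1 of the wild type *RTG2*, *HAP3*, *DIC1* and *UBC8* were lower as well and *HAP4* was higher with a log FC of 0.36, and *RMD5* and *SNF1* did not pass. Without its replicate 2 *OAC1* and *YHM2* were lower, and *GID8* and *VID28* were higher. Here the log FC of *HAP4* was -0.23 and that of *UBC8* 0.04, against -0.47 for *UBC8* without replicate 1. More of all features, too, were called in either direction without a wild-type array.

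**Figure D4:**
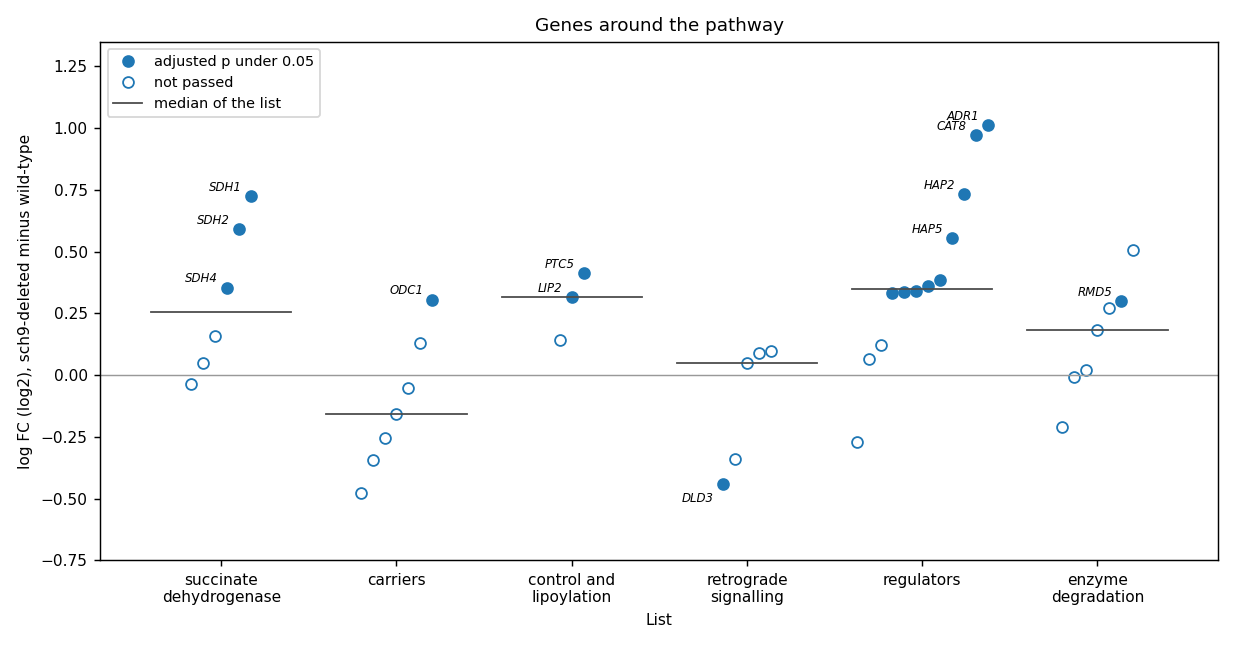
Each point is the log FC (vertical axis, log2, sch9-deleted minus wild type) of 1 gene next to the pathway, in 6 lists (horizontal axis), filled where the adjusted p was under 0.05, with a line at the median of the list. *ADR1* and *CAT8* lie highest, at 1.01 and 0.97, and *DLD3* is the only filled point below 0; of the filled regulators, only those above 0.5 carry a name.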

How the data were processed

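For the deposited log2 intensities the authors used Cy3-labelled RNA on Agilent yeast arrays, GenePix for spot reading, and quantile normalisation in limma; the submitters name R 2.14.2. No background correction is stated. The 4 arrays share slide 1. Probes were named by the array annotation (4061 have 1 symbol, 0 several, 2166 are unnamed here) and matched through RefSeq symbols and synonyms of assembly R64. Probes of 1 gene were averaged. The contrast was fitted over 6226 features with limma 3.58.1 in R 4.3.3 (lmFit, eBayes, prior degrees of freedom 3.29). A check on simulated data, with independent noise on each array, required recovery only of planted changes larger than that of any member. Smaller changes were planted as well, without a required recovery, and how many of them were called is not reported here. Figures come from Python 3.11.15 with matplotlib 3.10.9. The members and lists were chosen with earlier results of these data known. Every member is named, and of the genes next to the pathway, by plan, up to 4 called genes per list and direction and up to 2 opposing ones. Further ones were named once their values were known, among them *MIG1*, *REG1*, *HAP4* and *RTG2*, or because their call changed in an alternative. Precision is limited by the number of arrays. Alternatives were a fold threshold, quantile normalisation, median centring, leaving out dim features, an intensity trend with robust hyperparameters, treat, the brightest probe, each array left out and the replicate number as a block. Promoters and proteins were not analysed here.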

Additional observations from a re-analysis of the deposited data

How the results depend on the processing

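With a log FC beyond 1 in size 2 members were higher, both mitochondrial (*ACO1* and *MDH1*), 0 of the cytosolic and peroxisomal ones and 0 lower. Of all features 2.18% were then higher and 1.64% lower. With treat against a log2 fold change of 0.5 it was 1, *ACO1*, again 0 outside the mitochondrion and 0 lower. Of all features 2.18% were higher and 0.546% lower with treat. Quantile normalisation once more, median centring, an intensity trend with robust hyperparameters and dropping the share of 0.25 of features with the dimmest signal gave between 12 and 13 higher members and 1 lower. Of all features tested in these settings, between 14% and 16.8% were higher and between 11.8% and 14.7% lower. With the dim features left out *PCK1*, *CIT3* and *IDP3* were not tested. *IDH2* passed in each of these settings except median centring, with an adjusted p by limma between 0.0478 and 0.0486. The brightest probe could not change a member, since each has 1 probe. With each array left out in turn, 1 to 16 members were higher and 0 to 3 lower, 1 to 11 of the mitochondrial and 0 to 5 of the cytosolic and peroxisomal ones. The features as a whole swung as well, between 2.88% and 21.1% higher and between 0.932% and 20.4% lower, and each of these fits takes its spread from 1 strain alone. Among single members only 3 that did not pass changed sign, *CIT3*, whose log FC ran from -0.00036 without replicate 1 of the wild type to 0.16 without its replicate 2, *ICL1*, with -0.15 and 0.0073, and *PYC1*, with -0.21 and 0.0044. Blocking on the replicate number, 16 members were higher, 5 of them cytosolic or peroxisomal, and 3 were lower, where all features gave 1238 higher and 1311 lower. *IDH2*, *LPD1*, *MDH2* and *PYC2* joined the higher ones, and *MAE1* and *LSC1* the lower ones. Of the genes next to the pathway 18 were then higher and 6 lower, the carriers *DIC1*, *OAC1* and *YHM2* among the lower ones. The deviations of replicates with the same number correlated at 0.531 over all features, but the labels do not say that the number marks anything shared between the strains. With each array left out, *IDP1* minus *IDP2* ran between -0.09 and 0.15 and *CIT3* minus *CIT2* between 0.03 and 0.21, while *MDH1* minus *MDH3* ran between 1.13 and 1.42. How near a value lies to background was read only from its rank among the probes.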

Other observations

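The replicates of the wild type differed most among the members in *MAE1*, where replicate 1 was higher by 0.99 on the log2 scale, and in *MDH1*, where it was lower by 0.56. In the mutant the difference in *MAE1* ran the same way at 0.32, whereas *MDH1* differed by 0.04. Over all members replicate 1 minus replicate 2 had a median of -0.09 in the mutant and of -0.12 in the wild type, against -0.02 and -0.02 over all features. In *HAP4*, too, the wild-type replicates stood apart, by 0.60.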
